A study of Mus musculus with 7 samples.

Results

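The 4 Id genes (*Id1*, *Id2*, *Id3* and *Id4*) and the 3 genes of class I basic helix-loop-helix factors, or E proteins (*Tcf3*, *Tcf4* and *Tcf12*), were followed in muscle stem cells (MuSCs) that carried WT or homozygous *Jag2sm* alleles. These 7 genes were chosen by symbol, not by their values, and are 7 of the 56748 genes listed in each count file. RNA was measured in 7 libraries, 3 WT and 4 *Jag2sm*, from MuSCs of adult mouse hind limb muscle. The labels give the *Jag2sm* genotype as Jag2-/-, whereas the study describes *Jag2sm* as a naturally occurring hypomorphic missense allele of the NOTCH ligand gene, so reduced and not absent function. Both genotypes were sorted magnetically with the same antibodies. The study's general methods describe growth on collagen in medium with serum and bFGF, but its sequencing methods state no culture step. Whether the sequenced cells were cultured progenitors or freshly isolated stem cells is thus not stated there. The files do not tie a library to 1 animal, so p-values measure the spread between these samples, which may be technical.

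The MyoD family of muscle factors binds DNA as pairs with an E protein. The pair reads the E-box, a short site found near many muscle genes, and turns on differentiation. Id proteins have the same helix-loop-helix pairing surface but lack the basic region that touches DNA, so that an Id bound to an E protein withholds it from the muscle factors. Id genes are targets of BMP signalling through SMAD proteins, and in myoblasts they are known to be expressed during growth and to decline as cells differentiate. The comparison of *Jag2sm* with WT MuSCs asks whether the messages for these inhibitors and partners differed between the genotypes.

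*Id3* had the highest level of the 7 genes and *Id4* the lowest, and no member was called different between the genotypes. The means of *Id1*, *Id2*, *Id3*, *Tcf3* and *Tcf12* were higher in *Jag2sm*, and the mean of *Tcf4* was lower, with 95% intervals that all included 0. *Id3* made up a nearly fixed part of the Id counts, 61.8% to 65.9%, in the 7 libraries. *Tcf4* made up a smaller part of the E protein counts in each *Jag2sm* library than in any WT library. The muscle bHLH genes *Myog* and *Myf6* were called lower in the same fit.

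Levels are given as CPM, deposited counts per 1000000 counts on tested genes, after TMM scaling in edgeR. A gene was called when its Benjamini-Hochberg adjusted p, from the quasi-likelihood test of edgeR over 9489 tested genes, was under 0.05. In this fit 594 genes, or 6.26%, were called, 1.42% of tested genes as higher and 4.84% as lower in *Jag2sm* (135 and 459 genes). With library size alone as the scaling, 241 of 625 called genes were higher. The log2 fold change had a median of 0.05 over all tested genes. Between 187834 and 1937581 reads were counted on genes per library, with WT replicate 1 the shallowest. In that library 45.1% of aligned reads were assigned to no counted feature, and in the remaining 6 this was 20.8% to 25.7%. Reads that could not be aligned made up 50.8%, 46.7% and 46.0% in *Jag2sm* replicates 1, 2 and 4, but 2.44% to 3.24% in the remaining 4 libraries. *Jag2* itself stood at 80.7, 113.8 and 115.7 CPM in WT replicates 1, 2 and 3 and at 42.4, 78.8, 71.9 and 77.4 CPM in *Jag2sm* replicates 1 to 4. It was not called (log2 fold change -0.64, SE 0.24, adjusted p = 0.166 by edgeR), and a missense allele need not change the message level, so this does not check the labels. The muscle progenitor genes *Pax7* (28.8 to 172 CPM) and *Myod1* were present in every library, whereas *Chodl* and *Calcr*, which mark quiescent MuSCs, had 1 count each over all 7 libraries.

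In GRCm39 the genes lie on different chromosomes, by GENCODE release M39. *Id1* (ENSMUSG00000042745.10 in the files) spans chr2:152566218-152579544 on the plus strand, *Id2* (ENSMUSG00000020644.10) chr12:25143798-25147282 on the minus strand, *Id3* (ENSMUSG00000007872.4) chr4:135870808-135873066 on the plus strand and *Id4* (ENSMUSG00000021379.3) chr13:48414558-48419502 on the plus strand. *Tcf3* (ENSMUSG00000020167.15) spans chr10:80244046-80269594 and *Tcf12* (ENSMUSG00000032228.17) chr9:71749970-72019177, both on the minus strand, and *Tcf4* (ENSMUSG00000053477.19) lies on the plus strand. All 7 are protein-coding. The exons of *Tcf3* and *Tcf12* overlap no exon of another annotated gene, and genes within introns were not looked for. The exons of each Id gene and *Tcf4* overlap those of predicted genes of the opposite strand. These are Gm75058 at *Id1*, Gm36287 and Gm59395 at *Id2*, Gm57159 at *Id3*, Gm49291 at *Id4*, and Gm31439 and Gm58501 at *Tcf4*. The strand setting of the counting is not given in the sources used here, so reads from these partners cannot be told apart from reads of the members. Reads left uncounted as ambiguous between genes made up 8.05% to 9.74% of aligned reads per library. How many of them came from the members was not tested. Such loss may differ between genes with and without partners, which limits comparisons of levels between genes.

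The 4 stretches of 250 bases printed here, each from just before a gene's start are shown because the genes stand for the layers of the system, the inhibitors *Id2* and *Id3*, the E protein *Tcf3* and the E-box target *Myog*. They come from RefSeq on GRCm38.p6, an earlier build than that of the files, and run 5′ to 3′ on the gene's strand. RefSeq entries were used for 5 of the 7 members, without *Id1* and *Tcf4*. Capitals mark exact matches on either strand to the E-box CANNTG, to the BMP response core GGCGCC or to the RBPJ core TGGGAA, with no overlap between motifs in these 4 stretches. TATAAA was searched too.
Id2, chr12:25096093-25096342, minus strand: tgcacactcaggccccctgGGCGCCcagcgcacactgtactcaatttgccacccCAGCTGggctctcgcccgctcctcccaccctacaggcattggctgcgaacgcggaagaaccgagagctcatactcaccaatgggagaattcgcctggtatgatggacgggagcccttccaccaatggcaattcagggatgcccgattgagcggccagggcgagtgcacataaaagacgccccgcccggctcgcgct
Id3, chr4:136143572-136143821, plus strand: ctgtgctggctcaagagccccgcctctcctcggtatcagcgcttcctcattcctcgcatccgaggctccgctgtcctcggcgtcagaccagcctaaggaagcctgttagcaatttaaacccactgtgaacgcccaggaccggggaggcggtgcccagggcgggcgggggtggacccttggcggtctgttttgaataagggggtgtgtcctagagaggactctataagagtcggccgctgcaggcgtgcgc
Tcf3, chr10:80433636-80433885, minus strand: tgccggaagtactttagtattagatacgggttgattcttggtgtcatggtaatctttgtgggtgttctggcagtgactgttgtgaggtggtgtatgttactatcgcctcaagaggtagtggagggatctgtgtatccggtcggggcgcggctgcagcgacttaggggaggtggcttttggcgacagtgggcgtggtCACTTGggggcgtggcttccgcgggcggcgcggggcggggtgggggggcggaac
Myog, chr1:134289754-134290003, plus strand: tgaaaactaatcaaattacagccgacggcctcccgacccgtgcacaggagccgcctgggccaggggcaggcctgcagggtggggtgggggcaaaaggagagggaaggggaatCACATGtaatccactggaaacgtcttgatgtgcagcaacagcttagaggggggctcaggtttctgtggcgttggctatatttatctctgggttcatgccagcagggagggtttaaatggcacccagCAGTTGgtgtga

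Among all 32851 RefSeq promoter windows of this length, 66.2% hold CANNTG, 9.59% hold GGCGCC, 21.6% hold TGGGAA and 12.4% hold TATAAA. The *Id2* window held 1 E-box, 196 bases before the start, and 1 GGCGCC, 231 bases before it. The *Id3* window held none of the 4 motifs. *Tcf3* had 1 E-box 54 bases before its start, and *Myog* had 2, at 138 and 12 bases. Of the windows not shown, that of *Id4* held GGCGCC and TGGGAA once each, and 2 of the 3 *Tcf12* windows held 1 E-box. These matches describe letters and not binding, and a window without a match says nothing of sites elsewhere.

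*Id3* encodes the inhibitor with the most counts of the family in these cells. Its level was 455, 878 and 821 CPM in WT replicates 1, 2 and 3. In *Jag2sm* replicates 1, 2, 3 and 4 it was 1243, 943, 952 and 1096 CPM. Each *Jag2sm* library lay above each WT library, although WT replicate 2 and *Jag2sm* replicate 2 were 64.8 CPM apart. The WT mean was 718 ± 230 CPM (SD, n = 3), and that of *Jag2sm* was 1059 ± 142 CPM (SD, n = 4). The log2 fold change was 0.55 (SE 0.28), with a 95% interval from -0.07 to 1.16 and an adjusted p of 0.314 by edgeR's quasi-likelihood test. The exact two-sided permutation test of this gene alone gave p = 0.0286, the smallest value that the 35 assignments of libraries allow. Every *Jag2sm* library above every WT library was seen in 10.3% of all tested genes, so such a separation was common in these data.

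*Id1*, a classical BMP target, was counted at 133, 264 and 290 CPM in WT replicates 1, 2 and 3. It stood at 437, 341, 211 and 351 CPM in *Jag2sm* replicates 1, 2, 3 and 4. The groups overlapped, because *Jag2sm* replicate 3 lay below WT replicates 2 and 3. WT replicate 1 rests on 23 *Id1* reads, which by the exact binomial (Clopper-Pearson) 95% interval allows 84.1 to 199 CPM, counting error alone. The log2 fold change was 0.50 (SE 0.31, 95% interval -0.19 to 1.19) with an adjusted p of 0.417 by edgeR, and the exact permutation p was 0.229.

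*Id2* stood at 104, 262 and 213 CPM in WT replicates 1 to 3, the first of these from 18 reads. In *Jag2sm* replicates 1 to 4 it was 303, 226, 281 and 293 CPM. The groups overlapped through *Jag2sm* replicate 2, which lay below WT replicate 2. Its log2 fold change of 0.45 (SE 0.28, 95% interval -0.17 to 1.07) had an adjusted p of 0.411 by edgeR and an exact permutation p of 0.0857.

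*Id4*, which is best known from neural and mammary progenitors, had 12 counts over the 3 WT libraries and 17 over the 4 *Jag2sm* libraries. It did not pass the filter on low counts and was not tested in the edgeR fit of all 7 libraries. *Jag2sm* replicate 1 held 9 of its 17 counts there, or 12.7 CPM, and the other 3 *Jag2sm* libraries held 4, 1 and 3 counts. WT replicates 1, 2 and 3 held 2, 6 and 4 counts. Without the filter its log2 fold change was -0.32 (SE 0.73, 95% interval -1.75 to 1.10, adjusted p = 0.853 by edgeR), and DESeq2 gave -0.29 (SE 1.09, adjusted p = 0.957). It also passed the filter when WT replicate 2 or 3 was left out, with adjusted p of 0.872 and 0.887 by edgeR.

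*Tcf3*, whose transcripts encode the E12 and E47 proteins, was the E protein gene with the smallest edgeR p. It stood at 110, 144 and 147 CPM in WT replicates 1 to 3. In *Jag2sm* replicates 1 to 4 it stood at 192, 199, 190 and 149 CPM. Again each *Jag2sm* library lay above each WT library, with *Jag2sm* replicate 4 2.18 CPM above WT replicate 3. The log2 fold change was 0.42 (SE 0.21), with a 95% interval from -0.04 to 0.88 and an adjusted p of 0.297 by edgeR, and the exact permutation p was 0.0571.

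*Tcf4* encodes E2-2, the E protein also used in plasmacytoid dendritic cells and neurons. It was the 1 tested member with a lower mean in *Jag2sm*. WT replicates 1 to 3 stood at 184.5, 120 and 167 CPM, and *Jag2sm* replicates 1 to 4 at 56.6, 100.2, 127 and 131 CPM. The groups overlapped, since *Jag2sm* replicates 3 and 4 lay above WT replicate 2. *Jag2sm* replicate 1 was the lowest of all, with 40 reads and an exact 95% interval of 40.4 to 77.0 CPM. The log2 fold change was -0.55 (SE 0.29), with a 95% interval from -1.20 to 0.10, an adjusted p of 0.330 by edgeR and an exact permutation p of 0.171.

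*Tcf12* encodes HEB, an E protein that pairs with MyoD in myoblasts. Its levels were 98.0, 135 and 144 CPM in WT replicates 1 to 3 and 119, 160, 145 and 200 CPM in *Jag2sm* replicates 1 to 4. The groups overlapped, and the log2 fold change of 0.27 (SE 0.24, 95% interval -0.25 to 0.79) had an adjusted p of 0.575 by edgeR. The exact permutation p was 0.257.

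**Figure D1:**
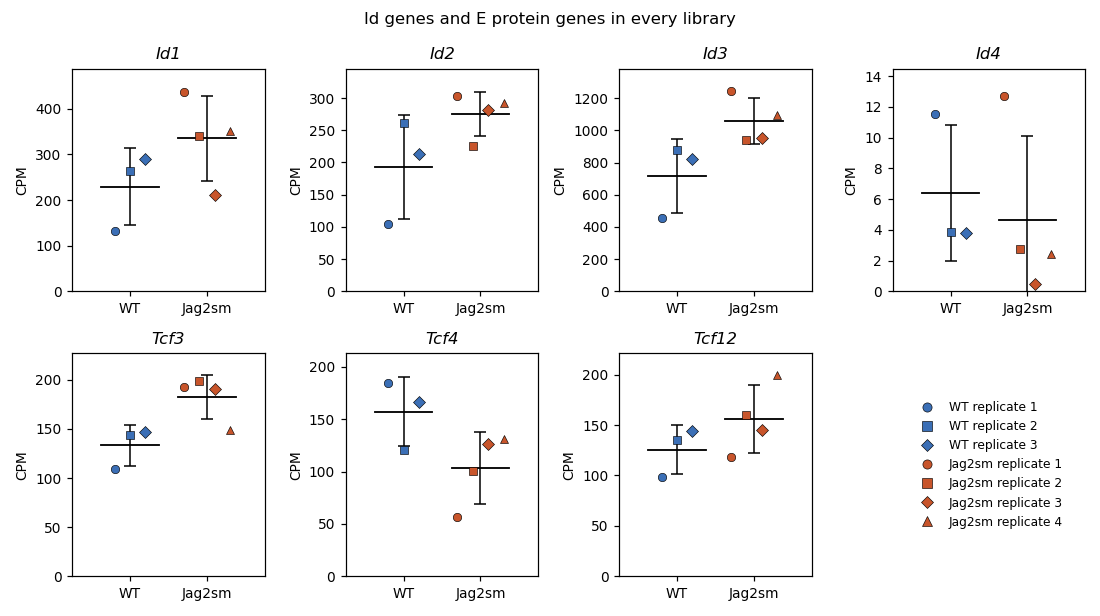
Normalized counts (CPM, linear axes that start at 0) of the 7 genes, with 1 panel per gene, 1 point per library, a line at the mean and a bar of 1 SD, which for *Id4* in *Jag2sm* is drawn only above 0. The *Jag2sm* points of *Id3* and *Tcf3* lie above all WT points, and in the other 5 panels the groups overlap.

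Of the 6 members tested, 0 were called, beside 6.26% of all tested genes, a share at which 0 calls among 6 genes would be common. By edgeR 0 of the 6 had an unadjusted p under 0.05, where 1873 of the 9489 tested genes had one. DESeq2 and limma-voom also called 0 members, and each gave 1 member an unadjusted p under 0.05, *Id3* having the lowest adjusted p in both (0.245 by DESeq2, 0.188 by limma-voom). The intervals leave room for changes of some size. At their upper ends they reach log2 fold changes of 1.19 for *Id1*, 1.16 for *Id3* and 0.88 for *Tcf3*, and the lower end for *Tcf4* is -1.20. The tests therefore do not show that the levels were equal.

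**Figure D2:**
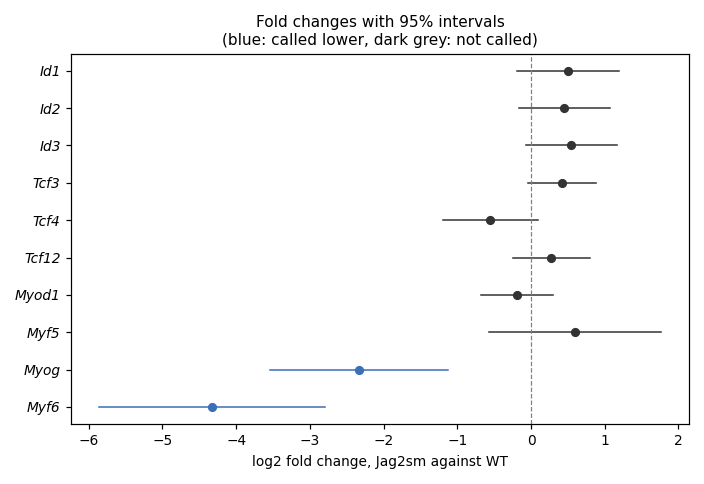
Log2 fold changes of *Jag2sm* against WT with 95% intervals from edgeR for the 6 tested members and the 4 myogenic bHLH genes. The intervals of the 6 members include 0, while those of *Myog* and *Myf6* lie wholly below it.

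Much of the size of the Id differences came from WT replicate 1. Without that library the log2 fold change was 0.26 for *Id1*, 0.20 for *Id2*, 0.30 for *Id3* and 0.16 for *Tcf12*, 1.77 to 2.29 times smaller than with it. *Tcf3* (0.32) and *Tcf4* (-0.45) moved less. WT replicate 1 also stood apart from the other WT libraries in its summed CPM of 27 cell cycle genes, which was 692 against 2388 and 2841, and of 25 differentiated muscle genes, which was 70550 against 41670 and 46570. In *Jag2sm* the cell cycle sum was 2675 to 3567 CPM and the muscle sum 2855 to 11100 CPM. The part of these values in the Id levels was not tested. In bulk samples, fewer cells of a type and less RNA per cell cannot be told apart.

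The labels give each library a batch number, and batches 1 to 3 hold 1 library of each genotype. Within batches, *Jag2sm* minus WT on the log2 CPM scale was 1.45, 0.10 and 0.21 for *Id3* and 0.80, 0.47 and 0.37 for *Tcf3*. *Tcf4* gave -1.68, -0.26 and -0.39, and *Tcf12* 0.27, 0.24 and 0.01. These 4 genes thus kept 1 direction in all 3 batches. For *Id3* and *Tcf3* any pairing of the libraries would give this, since each *Jag2sm* library lay above each WT library. *Id1* (1.71, 0.37 and -0.45) and *Id2* (1.53, -0.21 and 0.40) each changed direction in 1 batch. In all 6 tested members the batch 1 pair, which holds WT replicate 1, gave the difference of the greatest size, though for *Tcf12* batches 1 and 2 were close.

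**Figure D3:**
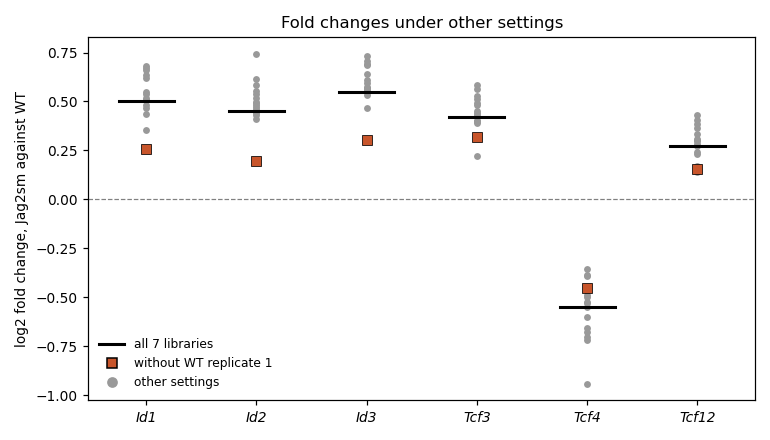
Log2 fold changes of the 6 tested members with all 7 libraries (black line), without WT replicate 1 (orange squares) and under the other settings (grey points). No setting moved a member across 0, and the orange squares are the lowest points for *Id1*, *Id2* and *Id3*.

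Levels of different genes were compared per kilobase of the canonical transcript in GENCODE M39, which is 1154 bases long for *Id1*, 2463 for *Id2*, 1278 for *Id3*, 3995 for *Id4*, 4351 for *Tcf3*, 8970 for *Tcf4* and 5893 for *Tcf12*. A long read can cover a whole transcript, so that this division may lower long genes too much. In WT the mean levels were 562 ± 180 CPM per kilobase (SD, n = 3) for *Id3*, 198.5 ± 73.3 for *Id1* and 78.4 ± 32.9 for *Id2*. They were 30.7 ± 4.76 for *Tcf3*, 21.3 ± 4.15 for *Tcf12*, 17.5 ± 3.70 for *Tcf4* and 1.60 ± 1.11 for *Id4*. The per-kilobase order was the same in *Jag2sm*, from 828 ± 111 CPM per kilobase (SD, n = 4) for *Id3* down to 11.6 ± 3.82 for *Tcf4* and 1.15 ± 1.38 for *Id4*. In each of the 7 libraries the order per kilobase was *Id3*, *Id1*, *Id2*, *Tcf3* and then the other E proteins, with *Id4* last, so the steps between these neighbours held within libraries even where their ranges over libraries overlapped. The exception was *Tcf12* over *Tcf4*, which held in 6 of 7 libraries and turned around in WT replicate 1 (16.6 against 20.6 CPM per kilobase). The order rests on this division. In undivided CPM, *Id3* was still first and *Id4* last in each library. However, *Id2* lay above *Id1* in *Jag2sm* replicate 3 (281 against 211 CPM). *Tcf4* lay above *Tcf3* and *Tcf12* in WT replicates 1 (184.5 against 110 and 98.0 CPM) and 3 (167 against 147 and 144 CPM). The families also crossed in WT replicate 1, where *Tcf4* lay above *Id1* (133 CPM) and *Id2* (104 CPM), and *Tcf3* above *Id2*. In *Jag2sm* replicate 4, *Tcf12* lay above *Tcf3* (200 against 149 CPM). *Tcf4* had the highest mean CPM of the E proteins in WT (157 ± 33.2, SD, n = 3) and the lowest in *Jag2sm* (104 ± 34.2, SD, n = 4).

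Shares within the Id family were steady for *Id3* and less so for *Id1* and *Id2*. *Id3* made up 64.8%, 62.4% and 61.8% of all Id counts in WT replicates 1 to 3 and 62.3%, 62.3%, 65.9% and 62.9% in *Jag2sm* replicates 1 to 4. *Id1* made up 14.6% to 22.6% and *Id2* 14.8% to 19.5% over the 7 libraries. The lowest *Id1* share and the highest *Id2* share came from the same library, *Jag2sm* replicate 3, in which there were 0.751 *Id1* counts per *Id2* count against 1.01 to 1.51 in the other 6 libraries. Summed over the 4 genes, Id levels were 703, 1408 and 1329 CPM in WT and 1995, 1513, 1445 and 1743 CPM in *Jag2sm*, with *Id3* the main part of each sum.

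Within the E proteins, *Tcf4* made up 47.1%, 30.1% and 36.4% of the E protein counts in WT replicates 1 to 3. It made up 15.4%, 21.8%, 27.4% and 27.3% in *Jag2sm* replicates 1 to 4. All 4 *Jag2sm* shares lay below all 3 WT shares, though the nearest libraries, WT replicate 2 (exact 95% interval 26.5% to 33.9%) and *Jag2sm* replicate 3 (24.6% to 30.4%), overlap in counting error. The mean share was 37.9% ± 8.55 (SD, n = 3) in WT and 23.0% ± 5.70 (SD, n = 4) in *Jag2sm*. This quantity was picked after the values were seen and has no test. Per kilobase the *Tcf4* shares were 19.3% to 33.0% in WT and 8.92% to 17.7% in *Jag2sm*. This rescales the same counts by fixed lengths and is no separate support. *Tcf3* made up 27.9% to 36.0% in WT and 31.1% to 52.3% in *Jag2sm*, and *Tcf12* 25.0% to 33.9% and 31.4% to 41.6%, both with overlap. The E protein sum itself was 392, 399 and 458 CPM in WT and 368, 460, 462 and 480 CPM in *Jag2sm*, so the sums overlapped where the *Tcf4* shares did not.

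The ratio of Id counts to E protein counts joins the families in 1 value per library. It was 1.79, 3.53 and 2.90 in WT replicates 1 to 3 and 5.43, 3.29, 3.13 and 3.63 in *Jag2sm* replicates 1 to 4. WT replicate 2 lay within the *Jag2sm* range, and the ends of the scale were the 2 libraries of batch 1. On the log2 scale the mean was 1.40 ± 0.50 (SD, n = 3) in WT and 1.92 ± 0.36 (SD, n = 4) in *Jag2sm*, a difference of 0.52, and without WT replicate 1 the difference was 0.24. A sum over chosen genes has no p here.

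**Figure D4:**
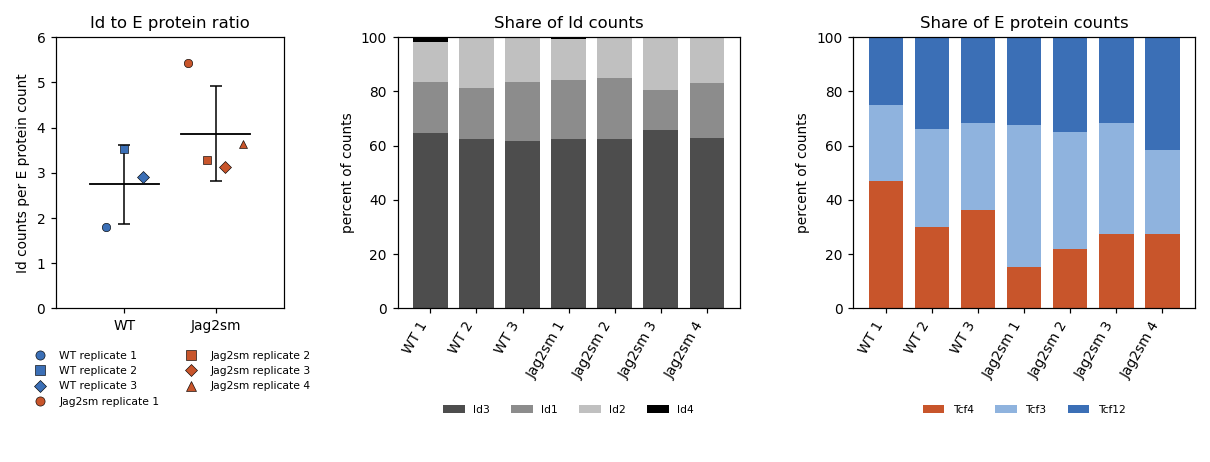
Left, Id counts per E protein count in each library (points) with the mean and 1 SD. Middle and right, the percent of Id counts and of E protein counts that each gene made up, as stacked bars for each library. *Id3* holds 61.8% to 65.9% of Id counts throughout, and the *Tcf4* part is smaller in all 4 *Jag2sm* bars than in the 3 WT bars.

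The myogenic bHLH genes, whose products pair with the E proteins, were split. Of the 4, 2 were called lower, against 4.84% of all tested genes. *Myog*, the factor of the commitment step, stood at 2894, 2222 and 2851 CPM in WT replicates 1 to 3. It fell to 711, 387, 110 and 906 CPM in *Jag2sm* replicates 1 to 4. No *Jag2sm* library reached the WT range, and the log2 fold change was -2.33 (SE 0.55, adjusted p = 0.0300 by edgeR). The call was lost without any 1 of WT replicates 1, 2 or 3 or of *Jag2sm* replicates 1 or 2, where the adjusted p was 0.0572 to 0.107 and the log2 fold change -2.50 to -2.20. *Myf6*, the gene of the late factor MRF4, fell from 167, 39.4 and 32.3 CPM in WT to 7.07, 2.07, 3.45 and 0.815 CPM in *Jag2sm*, a log2 fold change of -4.33 (SE 0.69, adjusted p = 0.00656 by edgeR).

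*Myod1*, the determination factor that pairs with E proteins in growing myoblasts, was 698, 830 and 808 CPM in WT and 632, 686, 615 and 806 CPM in *Jag2sm*. The groups overlapped, and the log2 fold change of -0.19 (SE 0.22, 95% interval -0.68 to 0.30) had an adjusted p of 0.696 by edgeR. *Myf5*, an early determination factor, was 5.76, 54.9 and 51.2 CPM in WT and 79.2, 33.2, 125.7 and 34.2 CPM in *Jag2sm*, with WT replicate 1 at 1 read. It was not called (log2 fold change 0.60, SE 0.53, adjusted p = 0.587 by edgeR). Of 25 differentiated muscle genes, many of them E-box targets, 23 were tested and 21 were called lower, against 4.84% of all tested genes. The median log2 fold change of the 23 was -3.21, beside 0.05 over all tested genes. The 4 that fell most were *Myh8* (-3.88, SE 0.63), a perinatal myosin, *Cacna1s* (-3.87, SE 0.75), the calcium channel of excitation, *Atp2a1* (-3.79, SE 0.49), the calcium pump of fast fibres, and *Myl1* (-3.69, SE 0.55), a myosin light chain. *Des*, a muscle intermediate filament and the called gene among 12 muscle stem cell markers, fell from 4600, 1807 and 1875 CPM in WT to 912, 836, 706 and 1103 CPM in *Jag2sm* (log2 fold change -1.63, SE 0.36, adjusted p = 0.0244 by edgeR). Without WT replicate 1 its log2 fold change was -1.06, and the call was lost with the replicate block (adjusted p = 0.0597) and without *Jag2sm* replicate 1 or 2 (0.0601 and 0.0890). Of the 27 cell cycle genes tested, 0 were called by edgeR, against 6.26% of all tested genes. Of these 27, 3 had an unadjusted p under 0.05 by edgeR, where 1873 of the 9489 tested genes had one. The log2 fold change was positive for 26 of the 27, beside 54.0% of all tested genes, with a median of 0.54. WT replicate 1 had the lowest cell cycle sum (692 CPM), and its part in this median was not tested. DESeq2 called 0 of the 27 genes and limma-voom 0. By edgeR, *Kif20a* was called with library size alone as the scaling (adjusted p = 0.0453) and *Cdc20* without the filter (adjusted p = 0.0407).

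Other tissue-restricted bHLH factors also pair with E proteins. Of 12 such genes 3 were tested and 1 was called, against 6.26% of all tested genes. *Scx*, known from tendon progenitors, fell from 115, 120 and 117 CPM in WT to 48.1, 37.3, 29.1 and 73.4 CPM in *Jag2sm* (log2 fold change -1.34, SE 0.29, adjusted p = 0.0223 by edgeR). Its call was lost without any 1 of WT replicates 2 or 3 or *Jag2sm* replicates 1 or 2, and after thinning to the smallest library (adjusted p 0.0528 to 0.0892). The tendon genes *Tnmd*, *Mkx*, *Thbs4* and *Fmod* had 0 to 14 counts in either genotype. *Atoh8* (0.03) and *Twist1* (0.24) were not called, and *Msc*, *Tcf21*, *Hand2* and *Tal1* had 0 counts in all 7 libraries.

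Among 8 bHLH-Orange repressors (Hes and Hey genes, *Bhlhe40* and *Bhlhe41*) 4 were tested and 1 was called, against 6.26% of all tested genes. *Hes6*, which opposes Hes1 and favours differentiation, fell from 473, 533 and 538 CPM in WT to 174, 171, 120 and 267 CPM in *Jag2sm* (log2 fold change -1.50, SE 0.27, adjusted p = 0.0106 by edgeR). *Hes1*, itself a NOTCH target, was at 69.2, 85.3 and 63.5 CPM in WT and 72.1, 46.3, 41.4 and 57.1 CPM in *Jag2sm* and was not called (adjusted p = 0.318 by edgeR). *Hey1* and *Heyl* were not tested, with 17 and 37 counts in WT and 14 and 20 in *Jag2sm*.

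Of 6 inhibitors and E-box competitors outside the helix-loop-helix class, 6 were tested and 0 were called by edgeR, against 6.26% of all tested genes. For 3 of them edgeR gave an unadjusted p under 0.05. DESeq2 called 0 and limma-voom 0, and edgeR without the filter called 2, *Snai1* and *Snai2*. The mean of *Snai2*, a zinc-finger repressor that occupies E-boxes in myoblasts, was higher in *Jag2sm* (log2 fold change 0.87, SE 0.29, adjusted p = 0.114 by edgeR), and those of *Snai1* (-1.30, adjusted p = 0.134) and *Zeb1* (-0.79, adjusted p = 0.222) were lower. Of 9 cofactors of E proteins and Ids, 7 were tested and 1 was called, against 6.26% of all tested genes. *Cbfa2t3*, a corepressor of the ETO family that binds E proteins, fell from 69.2, 27.8 and 35.1 CPM in WT to 8.48, 2.07, 0.986 and 4.08 CPM in *Jag2sm*, a log2 fold change of -3.55 (SE 0.55, adjusted p = 0.00605 by edgeR). *Usp1*, a deubiquitinase that stabilises Id proteins, was at 17.3, 67.2 and 69.2 CPM in WT and 195, 69.8, 83.8 and 69.3 CPM in *Jag2sm* and was not called (adjusted p = 0.345 by edgeR).

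Id genes respond to BMP signals, and 33 genes of the BMP and SMAD pathway were looked at. Of these 18 were tested and 1 was called, against 6.26% of all tested genes, and the median log2 fold change of the 18 was 0.17. The 5 ligand genes *Bmp2*, *Bmp4*, *Bmp5*, *Bmp6* and *Bmp7* had 7 counts in WT and 13 in *Jag2sm* together, at most 5 in a library, so their message was near or below what this depth can measure. Of 8 receptor genes 4 were tested, 0 were called by edgeR or limma-voom and 2 had an unadjusted p under 0.05 in either, and DESeq2 called 0. *Bmpr2* (log2 fold change -0.52, adjusted p = 0.185) and *Acvr2a* (-1.55, adjusted p = 0.107) had lower means in *Jag2sm*. The transducers *Smad1* (-0.17), *Smad5* (-0.16) and *Smad4* (0.19) were not called. *Smad7*, a feedback inhibitor, had a higher mean (0.97, adjusted p = 0.161 by edgeR).

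*Grem1*, a secreted BMP antagonist, was the pathway gene that was called by edgeR. It stood at 5.76, 1.94 and 5.69 CPM in WT and at 73.5, 29.7, 92.1 and 9.78 CPM in *Jag2sm*, which rests on 10 and 294 counts. Its log2 fold change was 3.75 (SE 0.88, adjusted p = 0.0298 by edgeR). The call was lost by limma-voom and without any 1 of the 3 WT libraries or of *Jag2sm* replicates 1 or 2 (adjusted p 0.0507 to 0.179). The antagonists *Nog* (-1.65, adjusted p = 0.190) and *Fst* (-0.97, adjusted p = 0.0806) had lower means and were not called by edgeR.

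**Figure D5:**
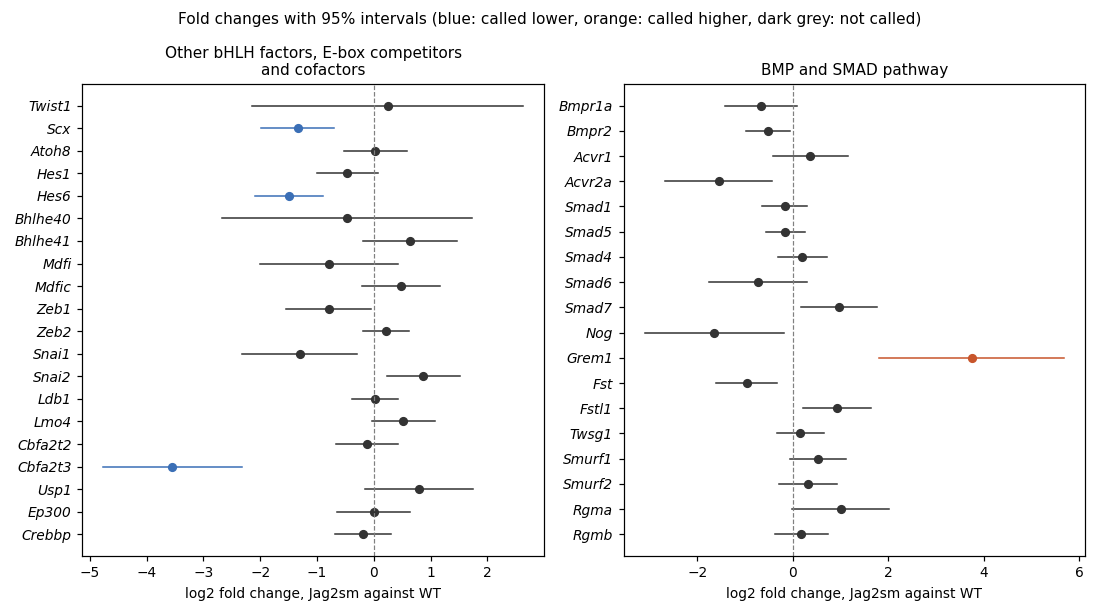
Log2 fold changes of *Jag2sm* against WT with 95% intervals for the tested genes of the listed bHLH factors, competitors and cofactors (left) and of the BMP and SMAD pathway (right). *Scx*, *Hes6* and *Cbfa2t3* are called lower, *Grem1* is called higher, and the other intervals belong to genes that were not called.

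The genes whose log2 CPM followed a member most closely over the 7 libraries were found among 4833 tested genes with a mean log2 CPM of at least 5. *Id3* was followed by *Sfr1* (Pearson r = 0.997) and *Nob1* (0.994), *Id2* by *Eif4a3* (0.997) and *Hspa14* (0.989), and *Id1* by *Dnajc9* (0.985) and *Tusc3* (0.980). *Tcf3* was followed by *Sec24b* (0.979) and *Clstn1* (0.977), *Tcf12* by *Zftraf1* (0.991) and *Las1l* (0.979), and *Tcf4* by *Wdr33* (0.980) and *Zfp260* (0.957). With 7 libraries that share 1 shallow member, and with so many genes to choose from, correlations of this size describe the libraries and no more, and none of these 12 genes was called.

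Markers of other cells were at or near 0 with few exceptions. Of 10 endothelial genes 0 passed the filter, with *Kdr*, *Tie1* and *Esam* at 0 counts, and their summed level was 4.74 to 11.5 CPM in WT and 7.88 to 17.0 CPM in *Jag2sm*. Of 8 immune genes 5, with *Ptprc* and *Adgre1* among them, were at 0, and the sums were 5.76 to 24.6 CPM in WT and 4.44 to 14.1 CPM in *Jag2sm*. Of 8 fibro-adipogenic genes, *Dpt* and *Lum* were at 0 and *Pdgfra* had 1 count in WT and 7 in *Jag2sm*, and the sums were 46.1 to 77.6 and 68.5 to 160 CPM, mostly from *Gsn*. The 6 glial genes summed to 0 to 4.74 CPM in WT and 1.97 to 12.7 CPM in *Jag2sm*. The 5 mural genes summed to 27.2 to 57.6 CPM in WT and 26.9 to 645 CPM in *Jag2sm*, the highest from *Rgs5* in *Jag2sm* replicate 1, which was also the library with the highest *Id1*, *Id2* and *Id3* and the lowest *Tcf4*. The part of *Rgs5* in those values was not tested. *Abcc9*, a potassium channel subunit on the mural list, fell from 40.4, 11.0 and 13.3 CPM in WT to 0, 2.76, 0.493 and 0.815 CPM in *Jag2sm* (log2 fold change -3.71, SE 0.72, adjusted p = 0.0139 by edgeR). Without *Jag2sm* replicate 1, the log2 fold changes were 0.35 for *Id1*, 0.41 for *Id2*, 0.47 for *Id3* and -0.36 for *Tcf4*.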

How the data were processed

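The authors made direct cDNA libraries for Oxford Nanopore sequencing, used dorado for base calling and minimap2 2.17 for alignment to GRCm39, and obtained gene counts from htseq, whose version, annotation and strand setting are not given in the sources used here. The deposited files hold raw counts for 56748 genes, and 5 rows without a gene were left out. These rows held 45.0% to 75.2% of all reads. The authors' DESeq2 table holds fold changes and p-values and was not used. The 7 members were matched by identifier to GENCODE M39.

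Counts were fitted in edgeR 4.0.16 (R 4.3.3), with filterByExpr (minimum count 10, minimum total 15), TMM and the quasi-likelihood test without covariates, and Benjamini-Hochberg adjusted p under 0.05. The coefficient of variation between libraries was 0.263. The log2 CPM used a prior count of 2. Permutation tests of single genes are exact and two-sided, on the absolute difference of mean log2 CPM, and intervals of shares are exact binomial at 95%. For a count of 0, 3 counts of the total are the limit, which is 1.55 to 16.0 CPM over the 7 libraries. Both cover counting error alone. The edgeR step was also run on simulated counts built from the means and spread of these data.

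The labels give a batch number equal to the replicate number, so replicates 1 to 3 are paired by label. Deviations of paired libraries from their group means correlated at 0.0740, 0.0144 and 0.0539 over 9489 genes. The replicate block was fitted as an alternative. Others were DESeq2 1.42.0, limma-voom (limma 3.58.1), DESeq2 size factors, library size alone, no filter, at least 10 counts in every library, thinning to 187834 counts and leaving out each library.

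The named genes are all members, the 4 myogenic bHLH genes, the called genes of each list (the 4 with the largest change where more than 8 were called) and the 2 genes most like each tested member. Other genes named were chosen after their values were seen. The members and lists were chosen with earlier results of these data known. Values of some listed genes are not reported here.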

Additional observations from a re-analysis of the deposited data

Results flagged for a closer look

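*Rgs5*, a gene of mural cells, was at 644.8 CPM in *Jag2sm* replicate 1, and the next highest of the 4 *Jag2sm* libraries was at 40.4 CPM. The gap made up 0.976 of the range over the group, above the 95% critical value of Dixon's test for 4 samples. This was the 1 quantity past that limit among 27 tested, where chance gives about 1 in 20. The other mural genes *Kcnj8*, *Abcc9*, *Pdgfrb* and *Myh11* had 0 counts in that library. *Rgs5* was at 11.5, 12.9 and 14.2 CPM in WT replicates 1 to 3 and at 29.7, 40.4 and 25.3 CPM in *Jag2sm* replicates 2 to 4. Each *Jag2sm* library thus lay above each WT library, as in 10.3% of all tested genes. The gene was not called (log2 fold change 3.73, SE 1.32, adjusted p = 0.135 by edgeR).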

How the results depend on the processing

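No member was called under any of the 15 alternatives, and no tested member changed direction. The 90 member fold changes under alternatives ranged from 0.20 to 0.74 for the 3 tested Id genes, from 0.14 to 0.59 for *Tcf3* and *Tcf12* and from -0.94 to -0.36 for *Tcf4*. The lowest adjusted p of a member under any alternative was 0.108, for *Tcf4* after thinning to the smallest library. The number of called genes over the whole table was 594, and it was 1248 without a filter on low counts, 274 with at least 10 counts in every library, 248 after thinning, and 251 to 616 when 1 library was left out. With the replicate block it was 565, and beside *Des* the paired fit changed no other call named in the text. The scaling by library size alone moved the median log2 fold change of all genes from 0.05 to 0.21, which is to be set against member changes of similar size. The median was -0.18 by DESeq2 and 0.13 without the filter, but over 25189 genes in place of 9489. These medians are therefore no shift of the members, as *Id1* was 0.54 by DESeq2 and 0.52 without the filter, beside 0.50. *Tcf4* was -0.52 and -0.50, beside -0.55. The difference in the log2 Id to E protein ratio, 0.52, was 0.24 to 0.73 when 1 library was left out and 0.53 over the paired batches. The *Tcf4* share differed by -14.9 percentage points, and by -18.8 to -10.3 when 1 library was left out. The difference in the *Id3* share was -0.47 to 1.26 percentage points. Among the lists, 27 of 120 counts moved by over 1.5 times or changed to or from 0. WT replicate 1, with 187834 counts, limits the low members, since *Tcf12* rests on 17 reads and *Id2* on 18 reads in it.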
